A study of Mus musculus with 8 samples.

Results

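Serpins are a superfamily of proteins built on 1 fold, and most members inhibit serine proteases, while a few inhibit cysteine proteases or no protease at all. The genes described here are the protein-coding genes of the count table whose mouse symbol begins with Serpin, a clade letter from a to i and a number, without the *Serpinb3* genes. There were 59 such genes among the 55416 genes of the table. Clade B contributed 24 genes, 8 of them on chromosome 1 and 16 on chromosome 13. Clade A contributed another 24 genes, of which 23 lie on chromosome 12 and 1, *Serpina7*, on chromosome X. The remaining 11 genes belong to clades C to I and are spread over the genome.

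An inhibitory serpin offers a flexible stretch, the reactive centre loop, as bait. When a protease cuts this loop, the loop inserts into the body of the serpin and the protease stays covalently trapped and inactive, so that each inhibitor molecule is used once. Clade A serpins are mostly secreted, many of them from the liver into plasma, whereas clade B serpins lack a classical signal peptide and stay largely inside cells. In the epidermis, serine proteases such as the kallikreins cut the junctions that hold cornified cells together, and their inhibitors set where and when this happens.

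The study asked what the loss of the nuclear receptor gene *Rora* from the epidermis does to gene expression. Its RNA-seq covers back skin epidermis peeled from pups at postnatal day 4, with 4 libraries of RoraEKO mice, which carry the floxed *Rora* allele (*Rora* flox/flox) and the K14-Cre transgene, and 4 of controls, whose genotype label is WT and which the study's text calls control littermates. Whether the controls carried a floxed allele or the transgene is not given in the sources used here. K14-Cre is driven by the keratin 14 promoter, which is active in basal keratinocytes and their descendants, including those of the hair follicle and sebaceous gland, so that other cells of the peeled epidermis keep *Rora*. Libraries are named by their sample titles, A1, B1, C1 and C6 for control and A3, B4, C2 and C3 for RoraEKO.

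Library totals ran from 17286903 to 26705533 counts. Levels are given as CPM, counts scaled to 1000000 per effective library size, and 3 counts, taken as the floor of detection, equalled 0.113 to 0.196 CPM. The counts of *Rora* itself overlapped between genotypes, at 212 ± 66.6 CPM in control and 196 ± 34.6 CPM in RoraEKO (SD, n = 4 each, adjusted p = 0.877), and a count over the whole gene need not show the loss of a floxed part, so the genotypes rest on the labels. *Xist* was at 416 and 527 CPM in control C1 and C6 and at or under 0.0546 CPM in the other 6 libraries, and all 4 RoraEKO libraries held Y-linked *Ddx3y* transcripts, so sex was not balanced between genotypes. Spinous keratinocyte markers summed to 40400 to 67700 CPM in control and to 82200 to 103000 CPM in RoraEKO, with 0 of their 5 genes called by the edgeR test and 1 at an unadjusted p under 0.05. The sum was carried by *Krt1*, at 30000 CPM in control and 48600 CPM in RoraEKO on average, and *Krt10*, at 23900 and 37700 CPM, while *Krtdap* stood at 3280 and 2590 CPM and *Dsg1a* at 932 and 942 CPM. Of 7 dermal fibroblast markers, 4 were tested and 1, *Postn*, rose, and their sums were 15.8 to 20.4 CPM against 27.6 to 43.7 CPM, most of it *Postn* (14.1 CPM in control and 30.4 CPM in RoraEKO on average). Erythroid markers summed to 47.8 to 334 CPM in control and 125 to 1040 CPM in RoraEKO, with 0 of 5 called and 4 at an unadjusted p under 0.05, and melanocyte markers to 50.4 to 142 and 55.7 to 104 CPM, with 0 of 6 called and 3, all of them lower in RoraEKO, at an unadjusted p under 0.05. Markers of hepatocytes and plasma proteins reached 108 CPM in control C6 and 21.4 CPM in RoraEKO C2, against 1.37 to 6.94 CPM in the other 6 libraries. The part of these differences in the results that follow was not tested, and in whole epidermis fewer cells of a type and less RNA per cell cannot be told apart.

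Of the 59 genes, 20 passed the filter on low counts and were tested, and 39 did not. Among the 39, 17 were at or under 3 counts in every library, and 9 of these had no count at all. Detection differed between clusters: all 8 clade B genes of chromosome 1 were tested, against 3 of 16 on chromosome 13, 7 of 24 in clade A and 2 of 11 in clades C to I. Of the 20 tested genes, 18 cleared the filter in both genotypes, *Serpina3i* cleared it in 2 control and 4 RoraEKO libraries, and *Serpinb10* in 3 and 2.

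The family's transcripts in this tissue came from a few genes. Per kilobase of the canonical transcript, averaged over the 8 libraries, *Serpinb12* stood highest at 225 CPM per kb, followed by *Serpinb5* at 191, *Serpina12* at 111, *Serpinb7* at 109 and *Serpinb2* at 60.6 CPM per kb. *Serpinb8* at 23.8, *Serpina9* at 23.1, *Serpina3b* at 10.3, *Serpina1e* at 10.1 and *Serpina3j* at 8.29 CPM per kb completed the 10 highest. These 10 genes were the same when the length of the union of exons was used, but *Serpinb5* then came first at 179 CPM per kb and *Serpinb12* second at 147. The plot of levels by library shows the 20 tested genes in chromosomal order.

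**Figure D1:**
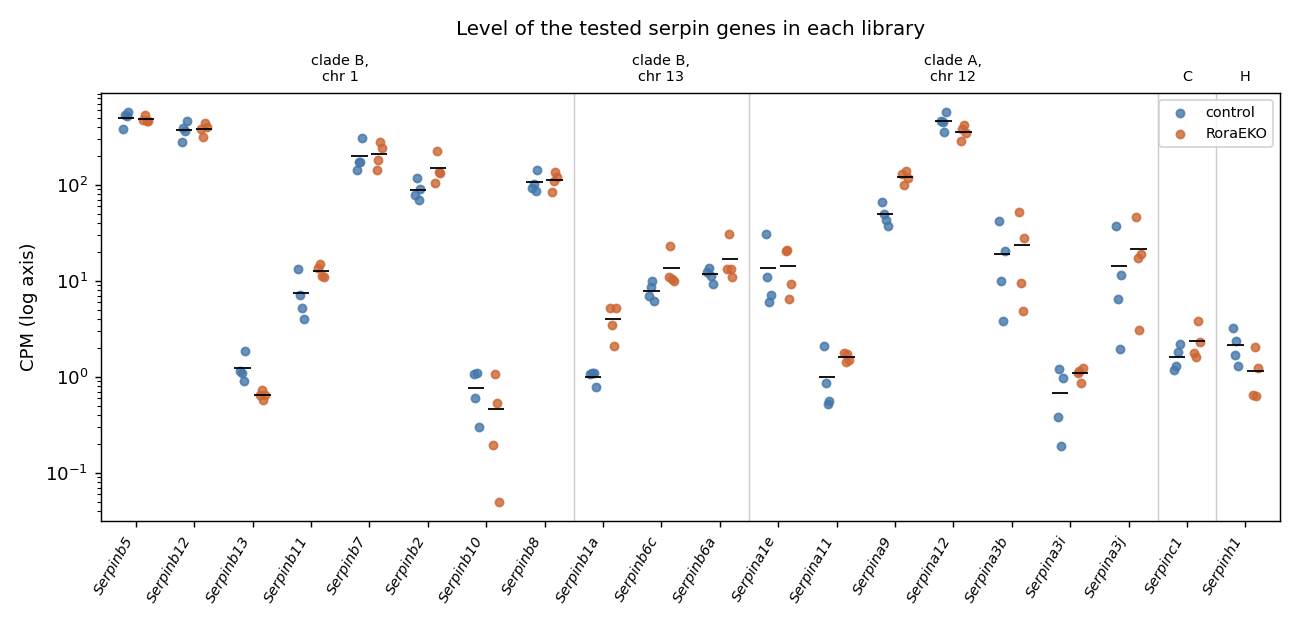
CPM of the 20 tested serpin genes on a log axis, 1 point per library (n = 4 control and 4 RoraEKO), with the mean of each genotype as a black bar and genes ordered by position within each cluster. *Serpina9* and *Serpinb1a* sit apart between genotypes, while *Serpinb5* and *Serpinb12*, the highest per kilobase along with *Serpina12*, overlap.

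The two-sided quasi-likelihood test of edgeR over all 13147 genes that passed the filter, with Benjamini-Hochberg adjustment, called 2 serpin genes higher in RoraEKO and 0 lower at an adjusted p under 0.05 and a fold change above 1.5. Over all genes tested the same rule called 2.3% higher and 3.22% lower. The genes called higher were *Serpina9* and *Serpinb1a*, and the likelihood ratio test and DESeq2 also gave 2 higher and 0 lower, where they called 3.29% and 3.64% of all genes higher and 4.38% and 4.21% lower. At an unadjusted p under 0.05 there were 6 serpin genes, 5 higher and 1 lower, where the background was 18.2% of all genes. The 4 libraries of each genotype did not overlap for 2 of the 20 genes with RoraEKO higher and for 1 with RoraEKO lower, against 5.4% and 7.54% of all genes. Of the 39 untested genes 30 had a count, and among these the genotypes did not overlap for 2 with RoraEKO higher and 1 with RoraEKO lower, against 1.42% and 1.62% of the 10588 genes of the table that had a count and did not pass the filter. The log2 fold changes of the 20 genes ran from -0.93 to 1.99 with a median of 0.42, 15 above 0 and 5 below, beside a median of -0.04 over all genes tested.

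**Figure D2:**
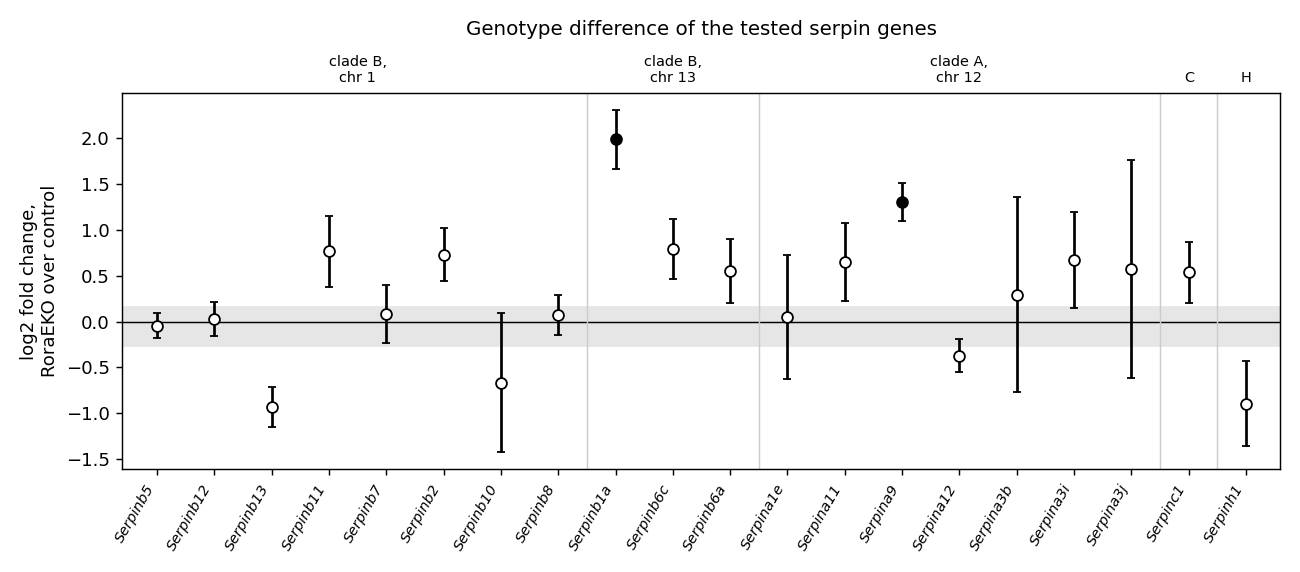
Log2 fold change of RoraEKO over control for the 20 tested serpin genes, with bars of 1 SE of the difference of mean log2 CPM (n = 4 each), filled points for genes that passed the test and a grey band for the middle 50% of all genes tested, from -0.26 to 0.16. The filled points are *Serpinb1a* at 1.99 and *Serpina9* at 1.31.

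*Serpina9*, also known as centerin, is a clade A serpin named for its expression in germinal centre B cells. The gene lies on the minus strand of chromosome 12 (GRCm39 chr12:103961002-103980062, ENSMUSG00000058260). It stood at 66.6, 50.4, 43 and 37.4 CPM in control A1, B1, C1 and C6 and at 130, 101, 140 and 118 CPM in RoraEKO A3, B4, C2 and C3. Every RoraEKO library was above every control library. The mean rose from 49.4 ± 12.7 to 122 ± 16.9 CPM (n = 4 each, SD), or a log2 fold change of 1.31 with an SE of 0.21 and an adjusted p of 0.00409 by the edgeR test. All 18 alternative fits called the gene, with adjusted p-values from 1.08e-08 to 0.0288. Behind these values stood 908 to 2903 counts per library, none of the 3633 windows of 75 bases in its canonical transcript occurred in another serpin transcript, and the only annotated gene that overlaps it, the noncoding *Gm28577*, had no counts.

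*Serpinb1a* encodes a cytosolic inhibitor of neutrophil elastase, cathepsin G and related proteases. The gene lies on the minus strand of chromosome 13 (GRCm39 chr13:33026042-33035224, ENSMUSG00000044734), and is the first of the clade B genes there by position. It stood at 1.07, 1.09, 1.09 and 0.788 CPM in control A1, B1, C1 and C6 and at 5.29, 3.45, 2.12 and 5.24 CPM in RoraEKO A3, B4, C2 and C3. The controls lay close together, the RoraEKO libraries were spread over a wider range, and the genotypes did not overlap. The mean rose from 1.01 ± 0.148 to 4.02 ± 1.53 CPM (n = 4 each, SD), or a log2 fold change of 1.99 with an SE of 0.32 and an adjusted p of 0.00692 by the edgeR test. The level was low even so, 20 to 28 counts per control library and 44 to 105 per RoraEKO library. The call held in 17 of 19 alternatives and was lost with *Xist* level as covariate (log2 fold change 1.90, adjusted p = 0.0511) and without control C1 and C6 together (1.94, adjusted p = 0.0763).

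Neutrophils are a known source of *Serpinb1a*, and the 7 neutrophil markers summed to 0 to 0.45 CPM in control and to 0.457, 0.288, 2.46 and 0.399 CPM in RoraEKO A3, B4, C2 and C3, of which C2 stood apart from the rest. None of the 7 passed the filter, and *Elane*, which encodes neutrophil elastase, had no counts in any library. Whether RNA of neutrophils bears on the *Serpinb1a* values was not tested.

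The mouse holds 3 *Serpinb1* genes where many mammals hold a single one. The coding stretches of their reactive centre loops, read from GENCODE M39 transcripts on GRCm39, are shown because they set the genes apart and because the loop is what a protease cuts. Each stretch runs from the hinge, found as the codons for glutamate, any residue, glycine and a further residue, to 5 codons before the next proline followed by an aromatic residue, and capitals mark the 4 hinge codons. *Serpinb1a* is at chr13:33026888-33026959 on the minus strand, *Serpinb1b* at chr13:33277750-33277830 on the plus strand and *Serpinb1c* at chr13:33065903-33065971 on the minus strand, each within 1 exon.
Serpinb1a: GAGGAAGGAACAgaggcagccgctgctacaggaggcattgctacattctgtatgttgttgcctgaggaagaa
Serpinb1b: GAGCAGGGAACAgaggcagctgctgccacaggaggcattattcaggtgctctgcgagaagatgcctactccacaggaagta
Serpinb1c: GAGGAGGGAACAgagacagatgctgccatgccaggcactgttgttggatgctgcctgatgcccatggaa

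The stretches held 24, 27 and 23 codons, so that the loops differ in length as well as in sequence. The paralogs were near absent. *Serpinb1b* had a single count, in control A1, and *Serpinb1c* ran from 0 to 0.305 CPM in control and from 0 to 0.131 CPM in RoraEKO. Only 7 of 1844 windows of 75 bases of *Serpinb1a*, 0.38%, occurred in another serpin transcript, and with the counts of the *Serpinb1* genes summed the log2 fold change was 1.83 (adjusted p = 0.0095). The gene *Wrnip1* overlaps *Serpinb1a* on the opposite strand and had a log2 fold change of 0.26 (adjusted p = 0.458); the libraries were prepared with a stranded kit, but the strand setting used in counting is not given in the sources used here.

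The loop of *Serpina9* is at chr12:103963346-103963420 on the minus strand and is shown beside those of the *Serpinb1* genes as the other member that rose. It is written in the same way, with the 4 hinge codons in capitals, and holds 25 codons.
Serpina9: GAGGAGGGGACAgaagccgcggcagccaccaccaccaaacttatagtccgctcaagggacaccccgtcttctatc

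The 8 clade B genes of chromosome 1 lie within 1 stretch, from *Serpinb5* to *Serpinb8* (GRCm39 chr1:106788875-107539280). Together they summed to 1290 ± 248 CPM in control and 1360 ± 112 CPM in RoraEKO (SD, n = 4 each). The edgeR test called 0 of the 8, as did the likelihood ratio test and DESeq2, and 3 had an unadjusted p under 0.05, where the background was 2.3% called higher, 3.22% called lower and 18.2% at that p. Their median log2 fold change was 0.05. The 4 *Serpinb3* genes, which sit in the same cluster, are outside this gene set. *Serpinb3c* rose from 4.53 ± 0.962 to 221 ± 28.4 CPM and *Serpinb3a* from 168 ± 48.3 to 490 ± 70.3 CPM, while *Serpinb3b* went from 61.6 ± 18.8 to 114 ± 13.8 CPM with an adjusted p of 0.0533. *Serpinb3d*, at 0.051 ± 0.0592 CPM in control and 1.98 ± 1.51 CPM in RoraEKO, was tested only because all 4 RoraEKO libraries cleared the filter, which 0 control libraries did.

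Among the 8 genes, log2 fold changes were nearest to 0 for *Serpinb12*, *Serpinb5*, *Serpinb8* and *Serpinb7*. *Serpinb5*, or maspin, is a clade B protein that does not inhibit proteases. It ran from 386 to 572 CPM in control and from 466 to 543 CPM in RoraEKO (log2 fold change -0.05, adjusted p = 0.934). *Serpinb12*, an inhibitor of trypsin-like proteases found in surface epithelia, ran from 281 to 470 CPM and from 314 to 440 CPM (0.03, adjusted p = 0.964). The genotypes overlapped for both, and the sign of these small differences turned in some alternatives.

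*Serpinb7* is a keratinocyte serpin whose loss in humans causes a palmoplantar keratosis. It ran from 145 to 310 CPM in control and from 144 to 279 CPM in RoraEKO (log2 fold change 0.08, adjusted p = 0.933). *Serpinb8*, whose loss in humans causes skin peeling, ran from 87.8 to 144 CPM and from 83.9 to 137 CPM (0.08, adjusted p = 0.911). In both genes control C6 was the highest of the 8 libraries, and the genotypes overlapped.

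*Serpinb2*, the plasminogen activator inhibitor type 2, is present in stratified epithelia and macrophages. It stood at 79, 119, 69.3 and 91.8 CPM in control A1, B1, C1 and C6 and at 104, 224, 136 and 133 CPM in RoraEKO A3, B4, C2 and C3. RoraEKO A3 lay under control B1, so the genotypes overlapped, and RoraEKO B4 was the highest library. The log2 fold change was 0.73 with an SE of 0.29 and an adjusted p of 0.142 by the edgeR test. Blocking on the first letter of the titles gave 0.70 with an adjusted p of 0.013, and without RoraEKO B4 it was 0.47 with an adjusted p of 0.29.

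*Serpinb11* is a clade B serpin of epithelia. It stood at 13.5, 7.16, 5.25 and 4.05 CPM in control A1, B1, C1 and C6 and at 13.6, 15.1, 11.3 and 11 CPM in RoraEKO A3, B4, C2 and C3. Control A1 reached into the RoraEKO range and the other 3 controls lay under it. The log2 fold change was 0.77 with an SE of 0.39 and an adjusted p of 0.262 by the edgeR test. Without control A1 it was 1.23 (adjusted p = 0.0106), with the title letter as a block 0.90 (adjusted p = 0.0415), and with *Xist* level as covariate 0.27 (adjusted p = 0.596).

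*Serpinb13*, a keratinocyte serpin that inhibits cysteine cathepsins, was the 1 tested gene that lay lower without overlap. It stood at 1.14, 1.09, 0.899 and 1.88 CPM in control A1, B1, C1 and C6 and at 0.653, 0.74, 0.578 and 0.649 CPM in RoraEKO A3, B4, C2 and C3. The difference was a log2 fold change of -0.93 with an SE of 0.22, an unadjusted p of 0.0155 and an adjusted p of 0.14, and no alternative called it. The counts were few, 19 to 50 per control library and 10 to 18 per RoraEKO library. *Serpinb10*, a serpin of blood cell precursors, was lower still in level at 0.764 ± 0.382 CPM in control and 0.461 ± 0.452 CPM in RoraEKO (log2 fold change -0.67, adjusted p = 0.716), and 5.93% of its windows of 75 bases also occurred in transcripts of its neighbour *Serpinb2*, which it overlaps on the same strand.

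**Figure D3:**
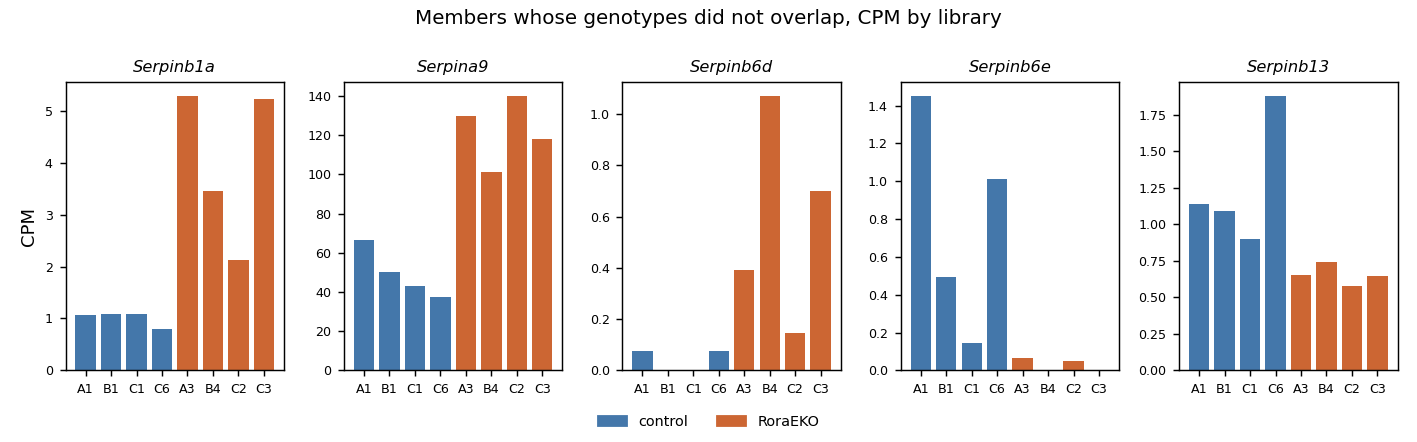
CPM in each library of 5 of the 6 serpin genes, 3 tested and 3 untested, whose 4 control and 4 RoraEKO libraries did not overlap, the untested *Serpina1f* being the other, with linear axes from 0 and 1 bar per library. *Serpinb1a*, *Serpina9* and *Serpinb6d* are higher in every RoraEKO library and *Serpinb6e* and *Serpinb13* lower; *Serpinb6d* and *Serpinb6e* did not pass the filter on low counts.

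On chromosome 13, *Serpinb1a*, *Serpinb6a* and *Serpinb6c* passed the filter among 16 genes, the edgeR test called 1 of the 3 higher, and 2 had an unadjusted p under 0.05, where the background was 2.3% and 18.2%. The summed level of the 16 genes was 22.2 ± 2.49 CPM in control and 38 ± 14.3 CPM in RoraEKO, far under that of the chromosome 1 genes. Of the 13 genes not tested, 8 were at or under 3 counts in every library and 6 of these, *Serpinb9c*, *Serpinb9d*, *Serpinb9e*, *Serpinb9f*, *Serpinb9g* and *Serpinb9h*, had no counts.

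*Serpinb6a* and *Serpinb6c* are paralogs of human SERPINB6, an intracellular inhibitor of cathepsin G and trypsin-like proteases. *Serpinb6c* stood at 6.93, 8.74, 10 and 6.12 CPM in control A1, B1, C1 and C6 and at 11.1, 23.3, 10.5 and 10 CPM in RoraEKO A3, B4, C2 and C3 (log2 fold change 0.79, SE 0.33, adjusted p = 0.182). *Serpinb6a* stood at 12.4, 13.6, 11.4 and 9.42 CPM and at 13.2, 31.1, 13.3 and 11 CPM (0.55, SE 0.35, adjusted p = 0.413). In both genes RoraEKO B4 stood far above the other 3 RoraEKO libraries. Without it the log2 fold changes were 0.41 for *Serpinb6c* and 0.09 for *Serpinb6a*. RoraEKO B4 also had the highest sum of basal keratinocyte markers, 1200 CPM against 270 to 379 CPM in the other RoraEKO libraries and 247 to 596 CPM in control. That sum was carried by *Krt14* at 706 CPM and *Krt5* at 371 CPM, while *Krt15*, at 55.4 CPM, was lower in RoraEKO B4 than in any other library. Whether this bears on the *Serpinb6* values was not tested.

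Beside them lay a pair of *Serpinb6* genes too low for the filter, picked out after their values were seen because the genotypes did not overlap. *Serpinb6e* had 38, 9, 3 and 27 counts in control A1, B1, C1 and C6 and 1, 0, 1 and 0 counts in RoraEKO A3, B4, C2 and C3. *Serpinb6d* had 2, 0, 0 and 2 counts in control and 6, 26, 3 and 14 counts in RoraEKO. The first was near absent from RoraEKO and the second from control. Set against a floor of 3 counts per library, averaged over the group, *Serpinb6e* was at least 5.04-fold lower and *Serpinb6d* at least 4.32-fold higher in RoraEKO. These bounds are for group means only, since control C1 for *Serpinb6e* and RoraEKO C2 for *Serpinb6d* were themselves at 3 counts. In the fit on every gene with at least 1 count, the edgeR adjusted p was 0.0129 for *Serpinb6e* and 0.034 for *Serpinb6d*.

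None of the windows of 75 bases of *Serpinb6e* and 0.36% of those of *Serpinb6d* occurred in another serpin transcript. Their loop stretches, each shorter than such a window, are shown beside that of *Serpinb6c* to compare them base by base, with the 4 hinge codons in capitals as before. *Serpinb6c* is at chr13:34064001-34064069 on the minus strand, *Serpinb6d* at chr13:33855309-33855377 on the plus strand and *Serpinb6e* at chr13:34016529-34016597 on the minus strand.
Serpinb6c: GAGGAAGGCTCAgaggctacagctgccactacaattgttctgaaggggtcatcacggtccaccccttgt
Serpinb6d: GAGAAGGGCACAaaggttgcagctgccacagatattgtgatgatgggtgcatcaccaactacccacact
Serpinb6e: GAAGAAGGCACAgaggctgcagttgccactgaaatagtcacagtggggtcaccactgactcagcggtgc

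All 3 stretches hold 69 bases. *Serpinb6c* shared 46 identical bases, 66.7%, with *Serpinb6d* and 46, 66.7%, with *Serpinb6e*, and *Serpinb6d* and *Serpinb6e* shared 43, 62.3%. With the counts of all 5 *Serpinb6* genes summed, the level was 20.6 ± 2.61 CPM in control and 31.5 ± 16 CPM in RoraEKO (log2 fold change 0.62, adjusted p = 0.3).

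Of the *Serpinb9* genes, relatives of the granzyme B inhibitor of killer lymphocytes, *Serpinb9b* alone exceeded 1 CPM. It stood at 7.13 CPM, or 148 counts, in RoraEKO C2 and at 1.35 CPM in RoraEKO C3, and ran from 0.0947 to 0.713 CPM in the other 6 libraries. *Serpinb9* itself ran from 0 to 0.196 CPM.

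Clade A summed to 567 ± 114 CPM in control and 545 ± 27.5 CPM in RoraEKO, and most of it was *Serpina12*. Of its 7 tested genes, 1 was called higher, *Serpina9*, where the background was 2.3%, with 6 log2 fold changes above 0, among them *Serpina3i*, which cleared the filter in 2 control and 4 RoraEKO libraries, 1 below and a median of 0.57. *Serpina12*, or vaspin, is an adipokine and an inhibitor of kallikrein 7 that is also made in skin. It stood at 466, 457, 361 and 573 CPM in control A1, B1, C1 and C6 and at 285, 381, 426 and 346 CPM in RoraEKO A3, B4, C2 and C3. RoraEKO A3 and C3 lay under every control, RoraEKO B4 and C2 did not, and the genotypes overlapped (log2 fold change -0.37, SE 0.18, adjusted p = 0.334). *Serpina12*, *Serpina9* and *Serpina11* are neighbours on chromosome 12, and *Serpina11* stood at 1.01 ± 0.737 CPM in control and 1.61 ± 0.164 CPM in RoraEKO (0.65, adjusted p = 0.519). Without control A1, which was the highest of the 8 libraries for *Serpina11*, that gene was called as well.

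*Serpina1e*, *Serpina3b* and *Serpina3j*, relatives of alpha-1-antitrypsin and alpha-1-antichymotrypsin, varied more within a genotype than between genotypes. *Serpina3b* stood at 42.2, 10, 3.83 and 20.5 CPM in control A1, B1, C1 and C6 and at 52.1, 9.49, 4.82 and 28.3 CPM in RoraEKO A3, B4, C2 and C3. *Serpina3j* stood at 37.2, 6.45, 1.94 and 11.5 CPM and at 46.5, 17.3, 3.08 and 19 CPM. *Serpina1e* stood at 31.1, 11, 6.06 and 7.09 CPM and at 20.4, 21.2, 6.5 and 9.34 CPM. Control A1 was the highest control library for all 3 genes, and RoraEKO A3 the highest RoraEKO library for *Serpina3b* and *Serpina3j*. The log2 fold changes were 0.30, 0.57 and 0.05 with SEs of 1.06, 1.19 and 0.67, and adjusted p-values of 0.915, 0.823 and 0.986. Hair shaft markers, 7 genes that were all tested, also summed highest in control A1 and RoraEKO A3, at 6400 and 5390 CPM against 1740 to 4260 CPM elsewhere, and their part in the serpin values was not tested. The summed level of 5 sebocyte markers, all tested, was 106 CPM in control A1 and 16.6 to 39.1 CPM in the other controls, and 45.7 CPM in RoraEKO A3 and 9.06 to 43.3 CPM in the other RoraEKO libraries. Within each genotype these sums were highest in A1 and A3 and lowest in C1 and C2, the same libraries that were highest and lowest for *Serpina3b* and *Serpina3j*. *Mc5r* and *Scd3* followed this order. *Soat1* was lowest among controls in C6, and the highest RoraEKO library was B4 for *Soat1* and *Awat1* and C3 for *Pparg*. The hair shaft sum was lowest in control C6 and RoraEKO C3. Among RoraEKO libraries, *Krt33a*, *Krt34* and *Krt86* were lowest in C3, but *Krt31*, *Krt35*, *Krt85* and *Hoxc13* were lowest in C2. The part of the sebocyte markers in the serpin values was not tested. Of the windows of 75 bases of *Serpina1e*, 22.6% also occurred in other serpin transcripts, against 0.15% for *Serpina3b* and 0.144% for *Serpina3j*.

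**Figure D4:**
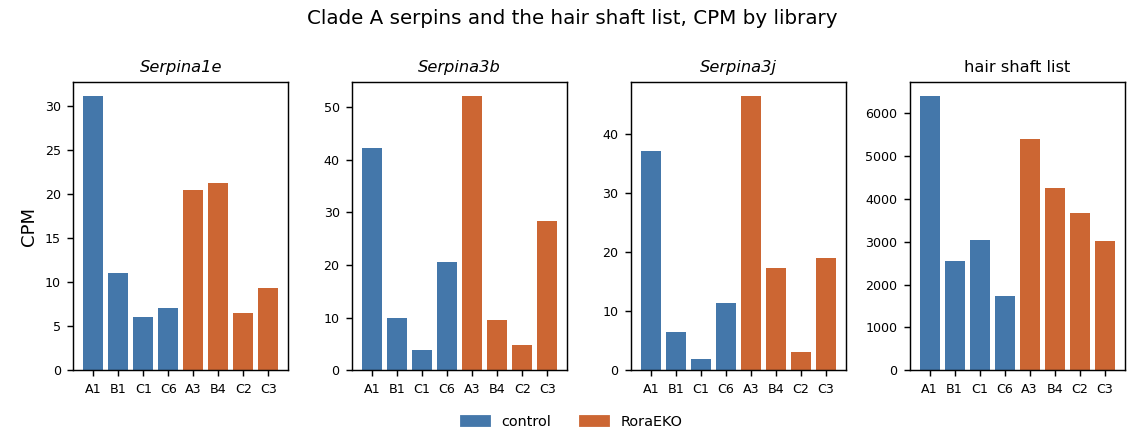
CPM in each library of *Serpina1e*, *Serpina3b* and *Serpina3j* and the summed CPM of 7 hair shaft markers, on linear axes from 0 with 1 bar per library. Control A1 is the highest bar among controls in every panel, and RoraEKO A3 the highest among RoraEKO libraries in every panel except *Serpina1e*, where RoraEKO B4 is at 21.2 CPM.

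*Serpina3i* stood at 0.687 ± 0.48 CPM in control and 1.09 ± 0.162 CPM in RoraEKO (log2 fold change 0.68, adjusted p = 0.564). *Serpina3n*, an acute phase inhibitor induced in inflamed tissues, ran from 0 to 0.188 CPM and was not tested. *Serpina1f*, picked out after its values were seen, had 0, 0, 1 and 0 counts in control A1, B1, C1 and C6 and 1, 4, 8 and 7 counts in RoraEKO A3, B4, C2 and C3. Control C1 and RoraEKO A3 held the same count and were apart only after scaling. On the mean of RoraEKO the gene was at least 1.81-fold higher against the floor, though RoraEKO A3 itself lay under the floor. Its edgeR adjusted p was 0.0764 in the fit on every gene with at least 1 count.

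Unlike *Serpina1e*, the genes *Serpina1a* to *Serpina1d*, which encode alpha-1-antitrypsins of liver, were highest by far in 1 library. In control C6, *Serpina1a* stood at 2.25, *Serpina1b* at 5.33, *Serpina1c* at 2.89 and *Serpina1d* at 1.61 CPM, while the other 3 controls were at or under 0.19 CPM for each. In RoraEKO C2 the first 3 stood at 0.626, 0.337 and 0.434 CPM. *Serpina3m* at 0.638 CPM and *Serpind1*, the heparin cofactor II gene, at 0.413 CPM were above 0 among the controls in control C6 alone. These are the libraries with the most hepatocyte and plasma protein transcripts, among them 62 CPM of *Alb* in control C6. The *Serpina1* genes share up to 65.5% of their windows of 75 bases with other serpin transcripts, so single values are uncertain, and with the counts of all 6 summed the level was 17 ± 10.9 CPM in control and 15.1 ± 7.01 CPM in RoraEKO (log2 fold change -0.17, adjusted p = 0.918). With control C6 and RoraEKO C2 left out together, an alternative chosen after seeing the data, the counts of called genes stayed at 2 higher and 0 lower.

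**Figure D5:**
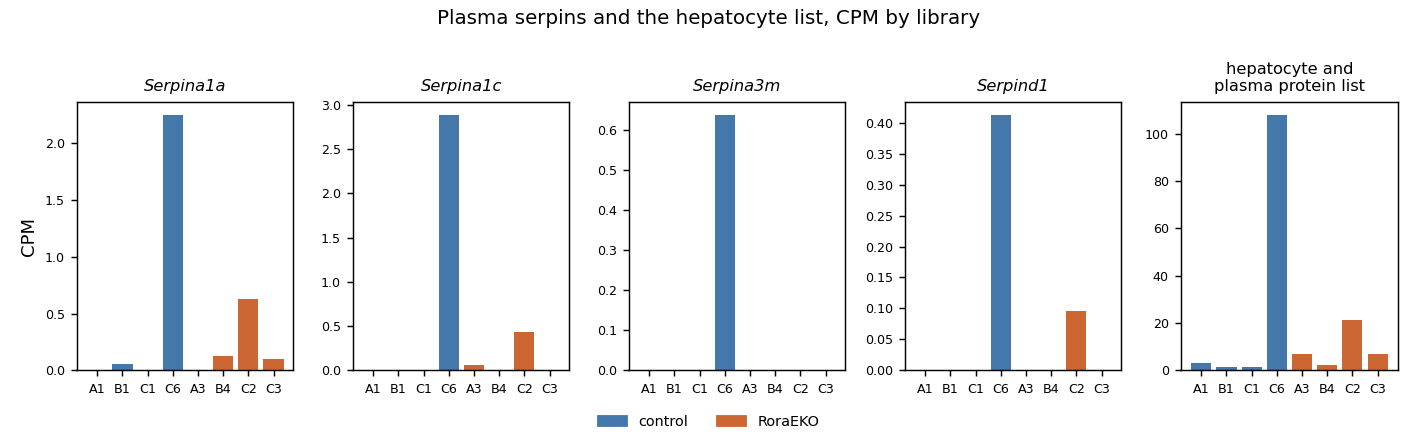
CPM in each library of *Serpina1a*, *Serpina1c*, *Serpina3m* and *Serpind1* and the summed CPM of 6 hepatocyte and plasma protein markers, on linear axes from 0 with 1 bar per library. Control C6 is the highest bar in every panel, at 108 CPM for the marker list, followed by RoraEKO C2 at 21.4 CPM.

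Clades C to I, which include the inhibitors of clotting, fibrinolysis and complement, were scarce in the epidermis. Of 11 genes, 2 were tested and 0 were called by the edgeR test, the likelihood ratio test or DESeq2, with 0 at an unadjusted p under 0.05, where the background was 2.3% called higher, 3.22% called lower and 18.2% at that p, and 2 genes are too few to be set apart from these shares. *Serpinc1*, the gene of antithrombin, stood at 1.63 ± 0.474 CPM in control and 2.37 ± 1 CPM in RoraEKO (log2 fold change 0.54, adjusted p = 0.482). *Serpinh1*, which encodes the collagen chaperone HSP47 of cells that make collagen, stood at 3.27, 1.69, 2.37 and 1.31 CPM in control A1, B1, C1 and C6 and at 0.653, 2.05, 0.626 and 1.25 CPM in RoraEKO A3, B4, C2 and C3. The genotypes overlapped, with a log2 fold change of -0.90, an SE of 0.47 and an adjusted p of 0.338. Collagen genes *Col1a1*, *Col1a2* and *Col3a1* stood at 0.762 to 1.29 CPM in control and 0.852 to 2.03 CPM in RoraEKO on average, with adjusted p-values from 0.693 to 0.998.

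The untested genes of these clades never exceeded 0.826 CPM. *Serpine2*, or protease nexin-1, stood at 0.482 CPM in RoraEKO C2 and at 0.0653 to 0.142 CPM elsewhere. *Serpinf1*, the gene of pigment epithelium-derived factor, ran from 0.0546 to 0.413 CPM in control and from 0 to 0.145 CPM in RoraEKO, *Serping1*, the C1 inhibitor, from 0.0546 to 0.3 and from 0 to 0.196 CPM, and *Serpini1*, or neuroserpin, from 0.109 to 0.805 and from 0.0653 to 0.329 CPM. Genotypes overlapped for all 4, and none of them was called in the fit on every gene with at least 1 count.

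Possible target proteases of serpins were counted from lists of 4 kinds. Of 24 epidermal and membrane serine proteases, 21 were tested, 4 rose and 0 fell, where the edgeR test called 2.3% of all genes higher and 3.22% lower. Of the 4, *Tmprss11d* passed the filter of 0.471 CPM through RoraEKO alone, with 0 control and 4 RoraEKO libraries above it, and the other 3 were above it in all 8 libraries. The likelihood ratio test and DESeq2 each called 6 of the 21 higher, where they called 3.29% and 3.64% of all genes higher. *Klk13*, a kallikrein of stratified epithelia, rose from 48.4 ± 4.75 to 106 ± 17.3 CPM (SD, n = 4 each, adjusted p = 0.0017), and *Klk9*, another kallikrein, from 109 ± 16.7 to 226 ± 62.7 CPM (adjusted p = 0.0188). *Tmprss13*, a membrane protease of epithelia, rose from 181 ± 2.12 to 304 ± 59.4 CPM (adjusted p = 0.0202), and *Tmprss11d*, the airway trypsin-like protease, from 0.188 to 1.31 CPM on average (adjusted p = 0.0127), with 2 to 6 counts per control library. For each of these 4 genes, and for *Prss22*, which was not called, every RoraEKO library lay above every control library. This held for 5.4% of all genes tested, and for *Tmprss11d* it follows from how the gene passed the filter. Without the 3 genes above the filter in fewer than 4 control libraries, 3 of 18 were called higher.

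The other lists held no call by the edgeR test. Of 18 cysteine proteases (cathepsins, caspases and legumain), 14 were tested, 2 had an unadjusted p under 0.05, where the background was 18.2%, the median log2 fold change was 0.08, and the likelihood ratio test and DESeq2 each called 1 higher, where they called 3.29% and 3.64% of all genes higher. Of 16 proteases of coagulation, fibrinolysis and complement, and of 21 granule proteases of leukocytes, 1 each was tested, and neither had an unadjusted p under 0.05 nor a call by the likelihood ratio test or DESeq2, though 1 gene cannot be set against the shares over all genes. The neutrophil and lymphocyte proteases that *Serpinb1a* and *Serpinb9* are known to inhibit were thus mostly under the filter in both genotypes.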

How the data were processed

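RNA-seq libraries were made from peeled dorsal epidermis of P4 mice with a stranded poly(A) kit. After trimming, the authors aligned the reads to GRCm39 (STAR 2.5.3a) and deposited the expected counts per gene that RSEM estimated, for 55416 genes in 8 columns and without normalization. The annotation release is not given in the sources used here. Symbols, lengths and positions came from GENCODE M39, in which 54749 identifiers were found.

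The expected counts were rounded, filtered with filterByExpr and scaled with TMM factors, and all 13147 remaining genes entered edgeR's quasi-likelihood test (version 4.0.16, R 4.3.3) in its legacy form, with no covariate (Benjamini-Hochberg adjusted p of 0.05, fold change above 1.5). Log2 CPM for SEs used a prior count of 2. Replicates are separate samples, and p-values measure only the spread between them. Floors cover counting error only, and SDs and SEs the spread between libraries. Named genes were *Rora*, called members, the 10 highest per kilobase, tested members without overlap, and a fixed list of 21 serpins. That list was chosen for a known place in epidermis or in extracellular proteolysis. Not every gene that this rule gives is reported here. The members and lists were chosen with earlier results of these data known. Alternatives were RLE factors, library size alone, every gene with at least 1 count, the non-legacy and likelihood ratio tests, DESeq2 1.42.0, the title letter as a block, *Xist* as a covariate, no fold cutoff, paralog counts summed, and libraries left out. The scripts were tested on simulated data. Promoter and protein sequences were not used here. Plots were drawn with matplotlib 3.10.9.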

Additional observations from a re-analysis of the deposited data

Results flagged for a closer look

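Among 72 groups of 4 libraries with a library above 3 counts, 16 held a library far from the other 3, by Dixon's criterion at 95%. Where the other 3 libraries are at 0, the criterion flags any value. This was so for *Serpina3m* and *Serpind1* in control C6 and *Serpina5* and *Serpina3c* in RoraEKO B4, among others. The 16 can therefore not be set against the 1 in 20 groups that the criterion flags by chance. In control C6 the flagged values were *Serpina1a* at 2.25, *Serpina1b* at 5.33, *Serpina1c* at 2.89, *Serpina1d* at 1.61, *Serpina3m* at 0.638 and *Serpind1* at 0.413 CPM, all above the other controls, and *Serpinb1a* at 0.788 CPM, under 1.07 to 1.09 CPM in the others. In RoraEKO C2 they were *Serpina1b* at 0.337, *Serpina1c* at 0.434, *Serpinb9b* at 7.13 and *Serpine2* at 0.482 CPM. In RoraEKO B4 they were *Serpinb5* at 543 CPM against 466 to 477 CPM, *Serpinb6c* at 23.3 CPM against 10 to 11.1 CPM, *Serpinb6a* at 31.1 CPM against 11 to 13.3 CPM, and *Serpina5* and *Serpina3c* at 0.164 CPM each against 0 CPM. The *Serpinb1a* value of control C6 rested on 21 counts.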

How the results depend on the processing

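The count of 2 serpin genes called higher became 3 with every gene of at least 1 count (*Serpinb6d* added), 4 with the title letter as a block (*Serpinb2* and *Serpinb11* added) and 1 with *Xist* as a covariate or without control C1 and C6 together (*Serpina9* alone), and ran from 2 to 4 over the 8 fits that each left out 1 library, the 4 without control A1 (*Serpinb11* and *Serpina11* added). The count of 0 called lower became 1, *Serpinb6e*, with every gene of at least 1 count and without control C1 and C6 together. With single libraries left out it ran from 0 to 1, the 1 without control C1 or RoraEKO A3. *Serpinb6e* did not pass the filter of the main fit. With libraries left out the filter needs fewer libraries, and the gene entered those fits through control libraries alone. On chromosome 1 the count of 0 became 2 with the title letter as a block and ran from 0 to 1 with single libraries left out. On chromosome 13 the count of 1 became 3 with every gene of at least 1 count and 0 with *Xist* as a covariate. Without control C1 and C6 together it stayed at 1, but the gene was *Serpinb6e*, called lower, in place of *Serpinb1a*. With single libraries left out the count ran from 1 to 2, the 2 without control C1 or RoraEKO A3. For genes that passed the filter of the main fit the cause was not tested. The genotypes share no replicate number, and the title letter, which they do share and whose meaning the labels do not give, served as the block.

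Small differences turned sign. *Serpina1e* went to -0.60 with *Xist* as a covariate, -0.49 without control C1 and C6 and -0.17 with the *Serpina1* counts summed, and ran from -0.20 to 0.84 with single libraries left out. *Serpina3b* went to -0.15 with *Xist* and -0.089 without control C1 and C6, and ran from -0.38 to 1.03. *Serpina3j* went to -0.053 with *Xist* and ran from -0.063 to 1.67. *Serpinb5* went to 0.0075 with every gene of at least 1 count, 0.085 with *Xist*, 0.13 without control C1 and C6 and 0.074 without control C6 and RoraEKO C2, and ran from -0.16 to 0.044. *Serpinb12* went to -0.033 with library size alone and ran from -0.088 to 0.18, *Serpinb7* from -0.047 to 0.39 and *Serpinb8* from -0.0081 to 0.28. RLE factors moved the median log2 fold change of all genes by 0.03 and library size alone by -0.05.

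Depth limits the 39 untested genes and, among the tested, *Serpinb1a*, *Serpinb10*, *Serpinb13*, *Serpina11*, *Serpina3i*, *Serpinc1* and *Serpinh1*, with 105 counts or fewer in each library. *Xist* was high in control libraries alone, so sex and genotype cannot be fully told apart with 4 libraries each.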
